A study of Mus musculus with 18 samples.

Results

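The immunoglobulin constant region genes described here are Igkc, Ighm, Ighg1, Ighg2b, Ighg2c and Ighg3, together with Jchain. These 7 symbols were taken by name from the 52433 usable gene symbols of the raw count table, and all 7 had reads. The list was chosen by gene name with the counts of these libraries and their differences between genotypes already known, so those differences are described here without a test. Hemibrains came from 18 mice of the C57bl/6 strain, 12 months old, in which the mouse Apoe gene is replaced by a human allele, and every mouse was homozygous. There were 6 APOE2/APOE2, 6 APOE3/APOE3 and 6 APOE4/APOE4 mice, 3 females and 3 males in each genotype. No mouse with its own Apoe gene was included, and APOE3, the most common human allele, served as the reference genotype. Each mouse gave 1 polyA RNA library, with 43681710 to 59207594 counts assigned to usable symbols. Levels are given in CPM, the reads of a gene scaled to the size of its library.

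An antibody is built from heavy and light chains, each with a variable domain that binds antigen and a constant part. The heavy-chain constant gene sets the class, with Ighm giving IgM, Ighd IgD, the Ighg genes the IgG subclasses and Igha IgA, while Igkc and the Iglc genes give the kappa and lambda light chains. Jchain encodes the small protein that joins IgM pentamers and IgA dimers, and is made mainly by antibody-secreting cells. In B cells the heavy-chain constant genes can also be transcribed without a joined variable segment, as sterile germline transcripts that precede class switching. C57BL/6 mice carry Ighg2c at a place where several other inbred strains carry the allelic form Ighg2a. In brain, cells of the B lineage are sparse and are found mainly in the meninges and the choroid plexus, and blood left in vessels can add others.

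The IgG constant genes are close copies of each other, which bears on how 50-base reads can be assigned among them. They lie within the heavy-chain locus on chromosome 12 (GRCm38, minus strand), Ighg2c at chr12:113285325-113288932, Ighg2b at chr12:113302965-113307933, Ighg1 at chr12:113325240-113330523 and Ighg3 at chr12:113356224-113361232. Ighm lies at chr12:113418558-113422730 on the same strand, Igkc on chromosome 6 at chr6:70726435-70726966 on the plus strand and Jchain on chromosome 5 at chr5:88519809-88527891 on the minus strand. The hinge exon, exon 2 of each IgG gene, joins the antigen-binding arms to the stem. The hinge exons of the GENCODE M21 transcripts are given below 5′ to 3′, with capitals marking bases that differ from Ighg2c in the pairwise alignment.
Ighg2c: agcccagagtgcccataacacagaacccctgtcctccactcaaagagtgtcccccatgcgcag
Ighg2b: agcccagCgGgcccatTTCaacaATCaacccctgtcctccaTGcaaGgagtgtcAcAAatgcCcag
Ighg1: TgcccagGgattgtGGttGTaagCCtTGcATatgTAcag
Ighg3: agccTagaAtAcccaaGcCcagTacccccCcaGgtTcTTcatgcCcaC
The Ighg2c hinge spans chr12:113288263-113288325, the Ighg2b hinge chr12:113307261-113307326, the Ighg1 hinge chr12:113329844-113329882 and the Ighg3 hinge chr12:113360529-113360576.

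Of the 66 bases of the Ighg2b hinge, 51 matched Ighg2c in the alignment, against 25 of 39 for Ighg1 and 35 of 48 for Ighg3. Over the secreted transcripts Ighg2c and Ighg2b were 86.4% identical, and the other pairs of IgG genes lay between 75.4% and 77.7%. The longest run shared by any pair was 78 bases in exon 3 of Ighg2c (chr12:113287869-113287946), also present in Ighg2b (chr12:113306869-113306946), and it is shown because a 50-base read inside it cannot be assigned to either gene.
Ighg2c and Ighg2b: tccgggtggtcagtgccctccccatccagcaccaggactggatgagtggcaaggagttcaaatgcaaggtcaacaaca
Such shared 50-base stretches made up 5.49% of Ighg2c, 4.15% of Ighg2b, 1.58% of Ighg3, 0.393% of Ighg1 and 0.288% of Jchain. Igkc and Ighm had none. Most positions of every member could therefore take a read of this length without ambiguity, and how the deposited counts treated ambiguous reads was not stated in the labels.

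The labelled tissue was checked against lists of cell type markers. The 10 microglia markers summed to between 380 and 453 CPM and the 12 choroid plexus markers to between 467 and 1214 CPM over the 18 libraries. The 12 B cell markers summed to between 18.7 and 22.4 CPM, and no gene of these lists was at 0 in all libraries. In whole-tissue RNA, fewer cells of a type and less RNA per cell cannot be told apart. Per kilobase of exon, Ighm had the highest mean level of the members in every genotype, at 16.9 CPM per kb in APOE2, 16.4 in APOE3 and 9.29 in APOE4. Igkc followed in APOE2 at 5.29 CPM per kb and Ighg2c at 3.62, and in APOE3 the order of this pair was the opposite, with Ighg2c at 3.34 and Igkc at 1.47. In APOE4 Ighg2c stood at 0.0620 CPM per kb, below Jchain at 0.277. Ighg1, Ighg2b and Ighg3 each stood at 0.109 CPM per kb or less in every genotype.

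Across genotypes, the levels of the 4 members with most reads did not all follow the same pattern. Igkc and Jchain were highest in APOE2, whereas Ighm and Ighg2c were level between APOE2 and APOE3 and lowest in APOE4. Among all genes, 3.91% were called between APOE2 and APOE3 (adjusted p under 0.05, edgeR), 6.53% between APOE2 and APOE4 and 0.773% between APOE4 and APOE3. The 4 members with enough reads to be tested were Igkc, Ighm, Ighg2c and Jchain. Of these, 2 were called with a higher level in APOE2 against APOE3 (1.9% of all genes), 3 with a higher level in APOE2 against APOE4 (3.01%), and 2 with a lower level in APOE4 against APOE3 (0.344%). Nothing is read from these counts, because the members were listed with these contrasts known, and the 3 pairs of genotypes share their mice.

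Igkc, the kappa light-chain constant gene, ranged from 1.46 to 6.02 CPM in APOE2 mice with a median of 2.20. In APOE3 it ranged from 0.706 to 0.988 CPM with a median of 0.731, and in APOE4 from 0.606 to 1.27 CPM with a median of 0.934. Every APOE2 mouse was above every mouse of the other genotypes, and APOE3 and APOE4 overlapped. The mean was 2.82 ± 1.72 CPM in APOE2, 0.781 ± 0.111 in APOE3 and 0.936 ± 0.256 in APOE4 (SD, n = 6). The log2 fold change was 1.83 (SE 0.31) against APOE3 and 1.55 (SE 0.31) against APOE4, and it was 0.28 (SE 0.35) between APOE4 and APOE3. The APOE2 mice were spread out, led by the female replicate 3 at 6.02 CPM and the male replicate 5 at 3.40 CPM. Without replicate 3 the log2 fold change was 1.46 against APOE3 and 1.21 against APOE4.

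Jchain, the joining protein of IgM and IgA, ranged from 0.856 to 1.52 CPM in APOE2 with a median of 1.01. It ranged from 0.397 to 0.730 CPM in APOE3, with a median of 0.586, and from 0.469 to 0.929 CPM in APOE4, with a median of 0.688. All APOE2 mice were above all APOE3 mice, while the highest APOE4 mice reached into the APOE2 range. The log2 fold change was 0.93 (SE 0.20) against APOE3, 0.64 (SE 0.20) against APOE4 and 0.29 (SE 0.21) for APOE4 against APOE3. The highest Jchain value, like the highest Igkc value, was in APOE2 replicate 3.

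**Figure D1:**
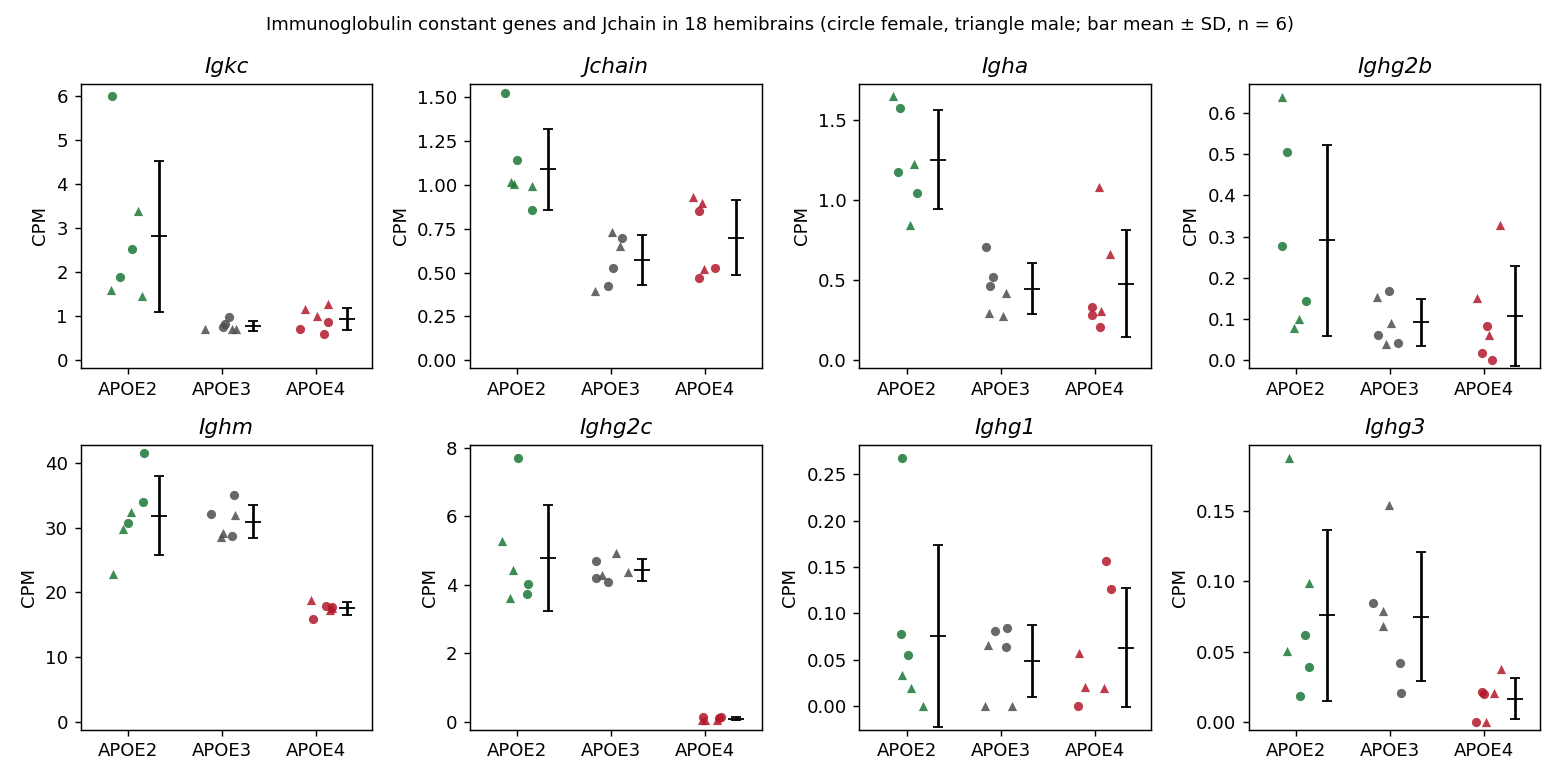
CPM of the 6 constant genes among the members, Jchain and Igha by genotype, with 1 point per mouse (circle female, triangle male) and the mean ± SD beside each group of 6, each panel on its own linear scale. Igkc was highest in the 6 APOE2 mice, at 1.46 CPM or more, and Ighg2c in the 6 APOE4 mice lay at 0.132 CPM or less.

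Ighm, the constant gene of IgM, ranged from 22.8 to 41.5 CPM in APOE2 with a median of 31.5, from 28.6 to 35.1 CPM in APOE3 with a median of 30.5, and from 15.9 to 18.8 CPM in APOE4 with a median of 17.6. Every APOE4 mouse was below every other mouse, and the APOE2 range enclosed the APOE3 range. The means were 31.9 ± 6.08, 30.9 ± 2.56 and 17.5 ± 0.956 CPM (SD, n = 6 each). The log2 fold change of APOE4 was -0.82 (SE 0.09) against APOE3, and that of APOE2 against APOE3 was 0.04 (SE 0.09). Sample titles carry end letters of unstated meaning, and in the APOE4 and APOE3 mice that share the letters e and f the log2 fold change of APOE4 was -0.79.

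Ighg2c, the constant gene of the IgG2c subclass, ranged from 3.61 to 7.70 CPM in APOE2, with a median of 4.22, and from 4.08 to 4.94 CPM in APOE3, with a median of 4.34. In APOE4 it ranged from 0.0379 to 0.132 CPM with a median of 0.0794, which was 2 to 7 reads per library and 25 reads over all 6. No APOE4 mouse came near the other genotypes, and APOE2 and APOE3 overlapped. From these counts, a lower transcript level in APOE4 and another allelic sequence at the locus, whose reads would be assigned less often to Ighg2c, cannot be told apart, and the same holds for Ighm. The summed reads in APOE4, scaled to library size, were 0.0184 times those in APOE3 (95% interval 0.0119 to 0.0274, exact, counting error only). The log2 fold change was -5.72 (SE 0.26) against APOE3, and -5.85 in the mice that share the letters e and f. APOE2 replicate 3 held the highest level of Ighm and of Ighg2c as well as of Igkc and Jchain.

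The other IgG genes were scarce, with 151 reads of Ighg2b, 56 of Ighg1 and 50 of Ighg3 over all 18 libraries, and none of them passed the filter on low counts. Ighg2b had 4 to 34 reads per library in APOE2, 2 to 8 in APOE3 and 0 to 17 in APOE4, so the genotypes overlapped. Its summed reads, scaled to library size, were 3.17 times as high in APOE2 as in APOE3 (exact 95% interval 2.03 to 5.11) and 2.68 times as high as in APOE4 (1.78 to 4.12). These intervals cover counting error only, and of the 92 APOE2 reads 26 came from replicate 2 and 34 from replicate 5. Ighg3 had 24 reads in APOE2, 21 in APOE3 and 5 in APOE4, a ratio of 0.222 for APOE4 against APOE3 (exact 95% interval 0.0654 to 0.605). That interval also covers counting error only and leaves out the spread between mice. Ighg1 had 23, 14 and 19 reads, and 13 of the 23 APOE2 reads came from replicate 3. Ighg2b, the member most like Ighg2c in sequence, thus had 33 reads in APOE4 and 26 in APOE3, where Ighg2c had 25 and 1263.

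The spread between mice differed between members and between genotypes. In APOE3 the coefficient of variation was 8.28% for Ighm, 7.29% for Ighg2c and 14.2% for Igkc, against 2.61%, 6.89% and 16.4% that read counting alone would give. Ighg2c and Igkc thus varied between APOE3 mice by about as much as counting. In APOE2 the coefficient of variation was 19.1% for Ighm, 32.2% for Ighg2c and 61.2% for Igkc, against 2.45%, 6.32% and 8.27% from counting. In APOE4 it was 5.46% for Ighm and 27.3% for Igkc, with counting at 3.35% and 14.5%.

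Of the constant genes outside the 7 members, Igha, which encodes the IgA heavy chain, was higher in APOE2. It ranged from 0.845 to 1.65 CPM in APOE2 (median 1.20), from 0.275 to 0.706 in APOE3 (median 0.442) and from 0.210 to 1.08 in APOE4 (median 0.319). All APOE2 mice were above all APOE3 mice, and APOE4 replicate 4, at 1.08 CPM, reached into the APOE2 range. Igha rose in APOE2 by 1.47 on the log2 scale against APOE3 (SE 0.31, edgeR adjusted p = 0.00636) and by 1.39 against APOE4 (SE 0.31, edgeR adjusted p = 0.00651). Its log2 fold change between APOE4 and APOE3 was 0.08 (edgeR adjusted p = 0.984).

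Ighd, the constant gene of IgD, which naive B cells carry on their surface beside IgM, moved the other way. Its lowest, median and highest levels were 0.194, 0.337 and 0.553 CPM in APOE2, 0.463, 0.637 and 0.776 CPM in APOE3, and 0.473, 0.657 and 1.06 CPM in APOE4, so the ranges overlapped. It fell in APOE2, with a log2 fold change of -0.90 against APOE4 (SE 0.21, edgeR adjusted p = 0.00976) and of -0.77 against APOE3 (SE 0.22, edgeR adjusted p = 0.0465). The call against APOE3 was lost without any 1 of APOE2 replicates 2, 3 and 5, APOE3 replicates 2 to 6 or APOE4 replicates 2 to 4 (adjusted p up to 0.130), with no sex term (0.0984), with limma voom (0.0560) and in the 12 compared libraries alone (0.0594). Ighe, the IgE gene, had 2 reads in all.

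The heavy-chain reads of each library were split by class. Ighm made up 82.2 ± 2.12% of them in APOE2, 84.3 ± 0.633% in APOE3 and 92.5 ± 2.05% in APOE4 (SD, n = 6). The share of Ighg2c was 12.2 ± 1.97% in APOE2, 12.1 ± 0.741% in APOE3 and 0.445 ± 0.250% in APOE4. Igha held 3.42 ± 1.40%, 1.22 ± 0.404% and 2.46 ± 1.53%. The summed heavy-chain level was 38.7 ± 7.22 CPM in APOE2, 36.6 ± 2.78 in APOE3 and 19.0 ± 1.37 in APOE4, and Ighm supplied most of each. The classes other than Ighm, Ighd and Ighg2c summed to 1.70 ± 0.283 CPM in APOE2, 0.668 ± 0.197 in APOE3 and 0.666 ± 0.428 in APOE4. All 6 APOE2 mice exceeded all 6 APOE3 mice in that sum, and APOE4 overlapped with both.

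**Figure D2:**
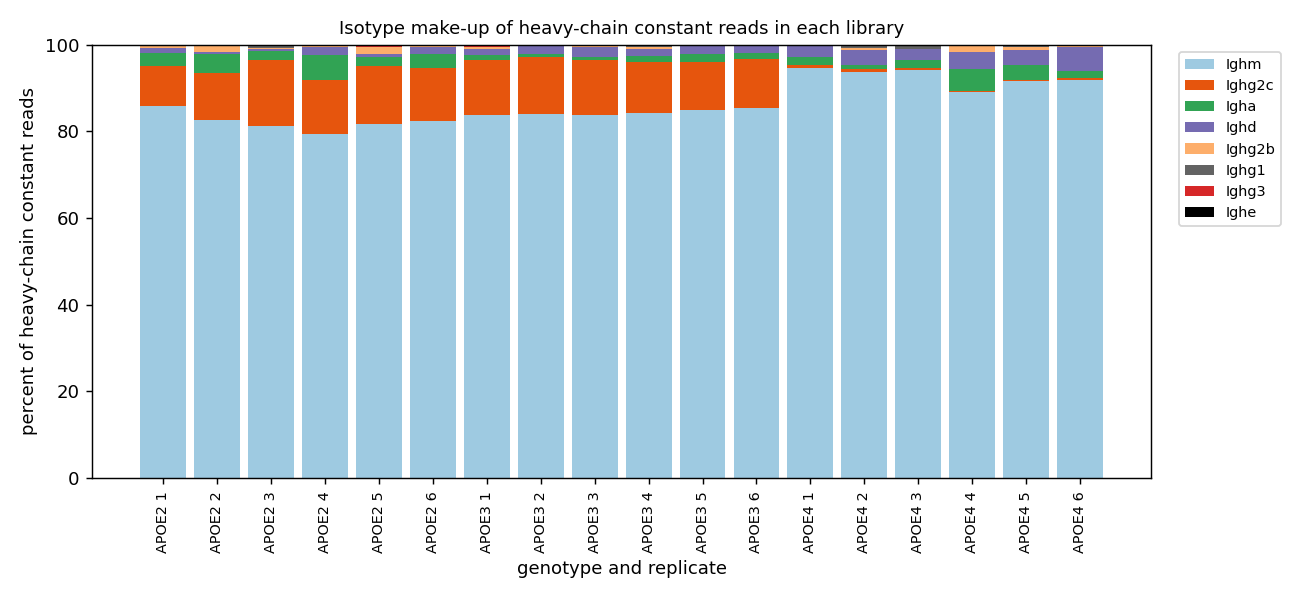
Percent of heavy-chain constant reads that each class took in each of the 18 libraries, stacked to 100%. Ighm was the largest class in every library, and Ighg2c, at least 9.42% of the reads in APOE2 and 11.1% in APOE3, was 0.787% or less in APOE4.

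Relative to the heavy chains, light-chain reads were few. There were 6.90 ± 2.84 Igkc reads per 100 heavy-chain constant reads in APOE2, 2.14 ± 0.314 in APOE3 and 4.93 ± 1.25 in APOE4 (SD, n = 6). The ranges of APOE2 (4.04 to 11.8) and APOE4 (3.22 to 6.63) both lay wholly above that of APOE3 (1.83 to 2.62). Between APOE4 and APOE3 the heavy-chain sum differed, at 19.0 against 36.6 CPM, while Igkc in CPM overlapped. The lambda constant genes Iglc1, Iglc2 and Iglc3 had 90, 18 and 31 reads in all, and 67 of the 90 Iglc1 reads were in APOE2 replicate 2. In that mouse lambda made up 41.2% of constant light-chain reads, against 2.16% to 9.76% in the other APOE2 mice.

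Variable genes, whose segments are joined ahead of the constant gene in a rearranged transcript, were measured from 346 symbols that the rule did not use. Of these, 152 had at least 1 read and none had enough reads to be tested alone. The 160 kappa variable genes summed to 308 reads in APOE2, 108 in APOE3 and 134 in APOE4. In CPM their sum ranged from 0.622 to 1.60 in APOE2, with a median of 0.797, from 0.190 to 0.766 in APOE3, with a median of 0.325, and from 0.274 to 0.530 in APOE4, with a median of 0.506. All APOE2 mice were above all APOE4 mice, and 1 APOE3 mouse, replicate 5, reached into the APOE2 range. Kappa variable reads per 100 Igkc reads were 38.4 ± 11.5 in APOE2, 47.4 ± 20.4 in APOE3 and 47.0 ± 7.34 in APOE4 (SD, n = 6), and the genotypes overlapped.

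The heavy chain differed from the kappa chain in this ratio. The 183 heavy-chain variable genes had 194 reads in all, 96 in APOE2 and 49 in each of the other genotypes. Per 100 heavy-chain constant reads there were 0.797 ± 0.364 variable reads in APOE2, 0.464 ± 0.233 in APOE3 and 0.856 ± 0.394 in APOE4, with all 18 libraries between 0.190 and 1.52. The lowest kappa ratio of any library, 23.1 per 100, was above the highest heavy-chain ratio. Heavy-chain variable reads were also set against constant reads of only the classes other than Ighm, Ighd and Ighg2c. Per 100 such constant reads the median was 16.6 in APOE2 (range 11.9 to 25.7) and 27.1 in APOE3 (8.33 to 70). In APOE4 the median was 29.0 (9.46 to 81.3), and the genotypes overlapped. The short heavy-chain joining segments had 39 reads in APOE2, 77 in APOE3 and 75 in APOE4, and per library size all APOE3 mice (0.176 CPM or more) were above all APOE2 mice (0.164 CPM or less), whereas in reads the lowest APOE3 mouse and the highest APOE2 mice had 8 each. Which transcripts the Ighm and Ighg2c reads came from was not tested.

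**Figure D3:**
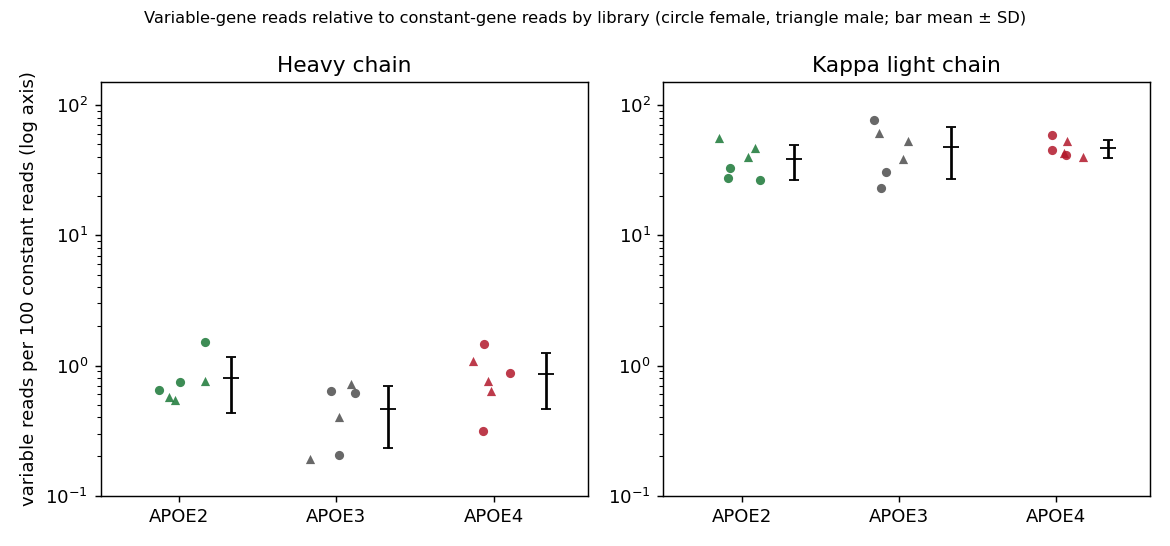
Variable-gene reads per 100 constant-gene reads in each library for the heavy chain (left) and the kappa light chain (right), on a shared logarithmic axis, with 1 point per mouse (circle female, triangle male) and the mean ± SD of each genotype (n = 6). The 18 heavy-chain ratios lie between 0.190 and 1.52 and the 18 kappa ratios between 23.1 and 77.6.

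Some single variable genes were concentrated in 1 mouse, and others were spread over the libraries. Igkv6-13 had 41 reads, of which 38 were in APOE2 replicate 3, where it took 48.7% of the kappa variable reads, and no APOE3 or APOE4 library had a read of it. Igkv6-15 had 41 reads in APOE2, 1 in APOE3 and 3 in APOE4, with 20 of them in that same APOE2 mouse. The lambda variable gene Iglv1 had 25 of its 35 reads in APOE2 replicate 2, the mouse with most of the Iglc1 reads. Igkv6-20 had 14, 16 and 13 reads in APOE2, APOE3 and APOE4, and 12 of the 16 APOE3 reads were in APOE3 replicate 5, where it took 31.6% of the kappa variable reads. Igkv8-19 had 20, 22 and 15 reads, with at most 8 in 1 library, and Igkv1-110 had 19, 5 and 7 reads, with at most 6. An APOE2 library had reads on 13 to 28 kappa variable genes, an APOE3 library on 5 to 12 and an APOE4 library on 10 to 19. These counts of genes move with the number of kappa variable reads in a library.

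How far other immunoglobulin entries followed Igkc from mouse to mouse was measured after the genotype means had been removed, as deviations of log2 CPM over 18 libraries. The sum of the kappa variable genes followed it, with Pearson r = 0.66 (permutation p = 0.00120 within genotypes, two-sided, adjusted p = 0.00720 over 6 relations). Spearman rho was 0.60 (permutation p = 0.00995, adjusted p = 0.0554). Without the 2 mice farthest from the median, APOE3 replicates 4 and 5, r was 0.76. Within genotypes r was 0.84 in APOE2, 0.50 in APOE3 and 0.87 in APOE4, with 6 mice in each.

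The summed heavy-chain constant genes had r = 0.72 with Igkc (permutation p = 0.0133, adjusted p = 0.0400) and rho = 0.60 (permutation p = 0.0185, adjusted p = 0.0554). Without APOE2 replicates 3 and 4 r was 0.39, so this relation rested on them, and without replicate 3 alone it was 0.47 (permutation, adjusted p = 0.247). The adjusted p of r was also above 0.05 without APOE2 replicate 1, 2 or 5 (permutation, 0.0564, 0.0831 and 0.0780), with r at 0.72, 0.73 and 0.73. Within genotypes it was 0.87, 0.15 and 0.34. For Jchain r was 0.46 (permutation p = 0.0400, adjusted p = 0.0799) and rho 0.49 (permutation p = 0.0418, adjusted p = 0.0837), and r was 0.16 without APOE2 replicate 3 and APOE4 replicate 5. Without APOE3 replicate 5 r with Jchain was 0.54 (permutation, adjusted p = 0.0315), and without APOE4 replicate 4 it was 0.54 (permutation, adjusted p = 0.0408). For Igha r was 0.14 (permutation p = 0.539, adjusted p = 0.647) and rho 0.14 (permutation p = 0.580, adjusted p = 0.580), with -0.68 within APOE2, 0.84 within APOE3 and 0.72 within APOE4. The relations with Igha and with the kappa variable genes were added after the data had been seen. Jchain and most of the heavy-chain sum are themselves members, as Igkc is. Their counts per library were known when the members were listed, so the p-values of these relations are given as description only.

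**Figure D4:**
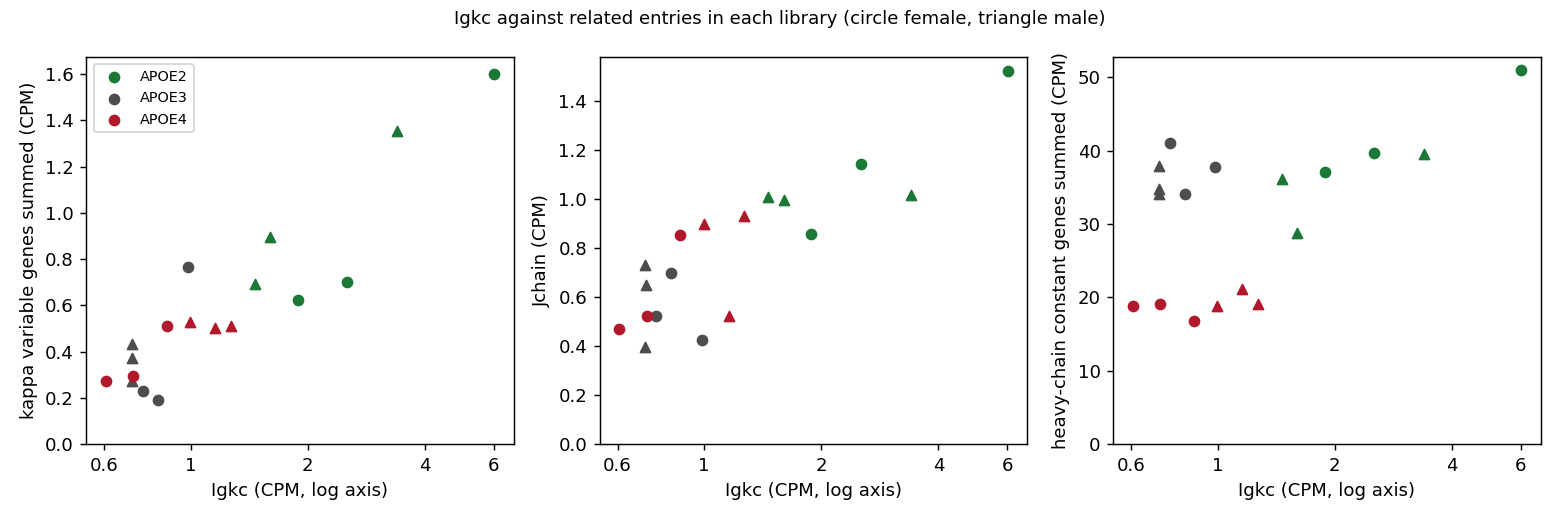
Igkc in CPM on a logarithmic axis against the sum of kappa variable genes, Jchain and the sum of heavy-chain constant genes in CPM on linear axes, with 1 point per mouse coloured by genotype (circle female, triangle male). Kappa variable reads follow Igkc within genotypes (r = 0.66), while the heavy-chain sum of APOE3 mice, 34.1 to 41.1 CPM, lies beside that of APOE2 mice at lower Igkc.

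The genes whose deviations were most like those of Igkc, by Spearman rho over 18 libraries among 18890 tested genes, were Plekhd1 (0.83), Kcnab3os (0.81), Olfr558 (0.78), Kazald1 (0.77) and Stard3nl (0.77). None of these 5 is an immunoglobulin gene or belongs to a list used here. Ighm ranked 258 with a rho of 0.53 and Jchain ranked 395 with 0.49, while Ighg2c stood at -0.10. These are descriptions without a test, over libraries that share depth and genotype.

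Sex was not part of the choice of the members, so it could be tested. No member was called between males and females, where 0.132% of genes were called (edgeR). The log2 fold change of males against females was -0.19 for Igkc (SE 0.26, edgeR adjusted p = 0.870), -0.12 for Ighm (SE 0.07, 0.665), -0.12 for Ighg2c (SE 0.15, 0.849) and 0.05 for Jchain (SE 0.17, 0.950). None of the 4 had an unadjusted p under 0.05 by edgeR. The test of whether genotype differences depend on sex called no gene at all (0% of genes, with 988 at an unadjusted p under 0.05), and the adjusted p of the members was 0.974 or more (edgeR). Igkc averaged 3.48 ± 2.23 CPM in APOE2 females and 2.15 ± 1.08 in males, 0.856 ± 0.120 and 0.707 ± 0.00130 in APOE3, and 0.730 ± 0.133 and 1.14 ± 0.137 in APOE4 (SD, n = 3). APOE4 males lay above APOE4 females without overlap, and APOE3 females above APOE3 males. With 3 mice per sex such orders can arise by chance. The share of all genes that show them was not counted, so nothing is read from them. Without a filter on low counts the sex by genotype interaction was called for Igkc, and no other setting called it.

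Genes that mark the B lineage were compared next, from lists written with earlier results of these data known. Of 12 B cell genes 8 could be tested, and none was called in any of the 3 pairs of genotypes (edgeR). Of these, 2 had an unadjusted p under 0.05 in APOE2 against APOE3, 0 in APOE2 against APOE4 and 3 in APOE4 against APOE3. Over all 18891 tested genes, 16.8%, 20.2% and 8.78% had an unadjusted p under 0.05 in these pairs, the shares against which such counts of the lists are to be read. The median log2 fold change of the 8 B cell genes was 0.14, 0.02 and 0.08 in these pairs, where the median over all genes was 0.00. Cd79a, a signalling chain of the B cell receptor, averaged 0.208 ± 0.113 CPM in APOE2, 0.140 ± 0.0239 in APOE3 and 0.168 ± 0.0705 in APOE4 (SD, n = 6), with a log2 fold change of 0.57 against APOE3 (SE 0.32, edgeR adjusted p = 0.379). Blnk, an adaptor downstream of that receptor, had a log2 fold change of -0.28 in APOE2 against APOE3 (SE 0.09, edgeR adjusted p = 0.0952), and DESeq2 called it.

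Of 14 plasma cell genes 11 could be tested, with median log2 fold changes of 0.01 (APOE2 against APOE3), -0.06 (APOE2 against APOE4) and 0.03 (APOE4 against APOE3). Positive log2 fold changes numbered 7, 5 and 10 in these pairs, and 2, 2 and 0 genes had an unadjusted p under 0.05 (edgeR). The only call was Fkbp11, a chaperone of secretory cells, which fell in APOE2 with a log2 fold change of -0.54 against APOE4 (SE 0.13, edgeR adjusted p = 0.0128) and was not called without a filter on low counts (0.0928). Tnfrsf17, the survival receptor BCMA of plasma cells, averaged 0.132 ± 0.0578 CPM in APOE2, 0.207 ± 0.0673 in APOE3 and 0.220 ± 0.0436 in APOE4 (edgeR adjusted p = 0.299 for APOE2 against APOE3). Xbp1, a regulator of secretion expressed widely in brain, was near 80 to 89 CPM in every genotype. Many genes of both lists are also expressed by other brain cells, so their summed levels are not a measure of B lineage cells alone.

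The receptors and effectors of antibodies showed no call. Of 13 Fc receptor and antibody transport genes 8 were tested, and 1 had an unadjusted p under 0.05 in APOE2 against APOE3 and 0 in the other pairs (edgeR). Fcer1g, the signalling chain of activating Fc receptors, averaged 5.96 ± 0.925 CPM in APOE2 and 6.94 ± 0.597 in APOE3 (edgeR adjusted p = 0.188). Among the 8 tested genes, 5 had a positive log2 fold change in APOE2 against APOE3, and the median was 0.03. All 10 classical complement genes were tested and none was called by edgeR, with 3 at an unadjusted p under 0.05 in APOE2 against APOE3 and 1 in each other pair. In APOE2 against APOE3, 3 of the 10 had a positive log2 fold change, and the median was -0.08. C4b averaged 47.5 ± 7.30, 41.8 ± 1.18 and 40.7 ± 3.28 CPM in APOE2, APOE3 and APOE4. Its log2 fold change in APOE2 against APOE3 was 0.18, while those of C1ra and C1qb were -0.29 and -0.19. Of the factors that guide or sustain B cells, 7 of 16 were tested, and Ccl28, a chemokine that draws IgA-secreting cells to mucosa, fell in APOE2 with a log2 fold change of -3.30 against APOE3 (SE 0.36, edgeR adjusted p = 7.43e-06) and -3.65 against APOE4 (SE 0.36, 1.31e-06). It was the only call of that list, while the survival factor Tnfsf13b and the chemokine Cxcl12 were not called. None of the 9 tested genes of class switching and DNA end joining was called by edgeR, with 0 at an unadjusted p under 0.05 in APOE2 against APOE3 and 1 in each other pair.

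Markers of blood, meninges and choroid plexus were set beside the antibody genes, since B lineage cells occur in these places. The 3 tested neutrophil and monocyte genes had a median log2 fold change of 1.39 in APOE2 against APOE3 and 1.04 against APOE4, with none called by edgeR and all 3 at an unadjusted p under 0.05 in both pairs. S100a9, a calcium-binding protein of neutrophils, was at 0.657 ± 0.426 CPM in APOE2, 0.226 ± 0.0813 in APOE3 and 0.268 ± 0.168 in APOE4 (SD, n = 6). Its log2 fold change against APOE3 was 1.52 (SE 0.46, edgeR adjusted p = 0.0784, DESeq2 adjusted p = 0.0169), and DESeq2 also called it against APOE4 (log2 fold change 1.28, adjusted p = 0.0431). Without APOE2 replicate 6 edgeR called S100a9 in both pairs (adjusted p = 0.0139 and 0.0216) and the monocyte receptor Ccr2 against APOE3 (0.0341), and without APOE4 replicate 5 it called Ccr2 in both pairs (0.0323 and 0.0182). With the compared genotypes alone edgeR called both genes against APOE3 (S100a9 0.0318, Ccr2 0.0286). The whole list summed to 1.14 to 6.12 CPM in APOE2, 0.708 to 1.17 in APOE3 and 0.870 to 1.71 in APOE4. Red cell genes summed to 120 to 267 CPM in APOE2, 114 to 170 in APOE3 and 109 to 134 in APOE4, with none of 6 called by edgeR (0 at an unadjusted p under 0.05 against APOE3 and 5 against APOE4; Hbb-bs was called against APOE4 without APOE2 replicate 1, adjusted p = 0.0377), and APOE2 replicate 3, the mouse with most Igkc, had the highest globin level at 196 CPM. All 6 tested red cell genes had a positive log2 fold change in APOE2 against APOE3 (median 0.46) and against APOE4 (median 0.72). The relation of globins with Igkc within genotypes was r = 0.51 (permutation p = 0.132, adjusted p = 0.199) and rho = 0.31 (permutation p = 0.303, adjusted p = 0.455), and r was 0.00 without APOE2 replicates 3 and 6. For Ttr, the main transcript of the choroid plexus, r was -0.06 (permutation p = 0.886, adjusted p = 0.886) and rho 0.22 (permutation p = 0.457, adjusted p = 0.548). Without APOE2 replicates 3 and 5 r with Ttr was 0.48, and within genotypes it was -0.33 in APOE2, 0.54 in APOE3 and 0.73 in APOE4.

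All 12 choroid plexus genes were tested, and all 12 had a positive log2 fold change in APOE2 against APOE3, with a median of 0.47 and 9 at an unadjusted p under 0.05. Against APOE4 11 were positive, with a median of 0.28 and 3 at an unadjusted p under 0.05, and in APOE4 against APOE3 all 12 were positive, with a median of 0.20 and 1 at an unadjusted p under 0.05. After adjustment 3 rose in APOE2 against APOE3, namely Prlr, the prolactin receptor, by 0.76 (SE 0.15, edgeR adjusted p = 0.00484), Calml4 by 0.72 (SE 0.16, 0.00973) and the collagen Col8a1 by 0.48 (SE 0.10, 0.00523). With no sex term Prlr was not called (0.0691). Calml4 also rose against APOE4, by 0.63 (SE 0.16, edgeR adjusted p = 0.0170). The list summed to 467 to 1214 CPM in APOE2, 598 to 830 in APOE3 and 488 to 844 in APOE4. Meningeal fibroblast genes (10 tested, summed to 156 to 271, 119 to 253 and 141 to 197 CPM) and border macrophage genes (7 tested, 7.07 to 15.8, 5.61 to 13.7 and 5.90 to 10.99 CPM) had no call by edgeR, with 1 and 0 genes at an unadjusted p under 0.05 in APOE2 against APOE3. Positive log2 fold changes in that pair were found for 8 of the 10 meningeal fibroblast genes (median 0.34) and all 7 border macrophage genes (median 0.23). T and NK cell genes had 3 tested and none called by edgeR, with 0 at an unadjusted p under 0.05 in each pair. Of 10 microglia genes, Siglech was lower in APOE2 than in APOE3 (log2 fold change -0.22, edgeR adjusted p = 0.0322), and Sall1 and Tmem119 were lower than in APOE4 (-0.20 each, edgeR adjusted p = 0.0267 and 0.0368). The Siglech call was lost with no sex term and without any 1 of APOE2 replicates 2, 3, 5 and 6 or APOE3 replicates 4 to 6 (adjusted p up to 0.0810). Both other calls were lost in the 12 compared libraries alone and without any 1 of APOE2 replicates 1 and 3 to 5 or APOE4 replicates 3, 4 and 6, and that of Tmem119 also without APOE4 replicate 1 or 2 (adjusted p up to 0.0949). The part of blood, choroid plexus or myeloid cells in the levels of Igkc, Jchain and Igha was not tested.

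The genes around the members on their chromosomes were examined. Within 2 Mb of the heavy-chain constant genes 44 genes outside the immunoglobulin family were tested, and none was called between APOE4 and APOE3, where Ighm and Ighg2c differed (2 had an unadjusted p under 0.05, edgeR). Their median log2 fold change was 0.01. Pld4, a phospholipase D family member of microglia and other immune cells, fell in APOE2 with a log2 fold change of -0.34 against APOE3 (SE 0.07, edgeR adjusted p = 0.00542) and -0.35 against APOE4 (SE 0.07, 0.00307). Crip2 fell in APOE2 against APOE4 by a log2 fold change of -0.25 (SE 0.06, edgeR adjusted p = 0.00869).

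Farther out on chromosome 12, the band from 5 to 10 Mb away from the constant genes held 6 called genes of 38 tested between APOE4 and APOE3 (15.8%, all higher in APOE4, edgeR). All 6 belong to the Serpina3 family of protease inhibitors, 8.84 to 9.10 Mb away, with log2 fold changes from 0.84 for Serpina3g to 8.14 for Serpina3f, and Serpina3n at 2.74 (adjusted p = 1.57e-19). On the other side Ptprn2 and Esyt2 were higher in APOE4 by 0.21 and 0.23. No tested gene more than 10 Mb away on this chromosome was called in that pair. These genes were named after their values had been seen. In APOE2 against APOE3 none of the 6 was called. Whether the mice differed in the sequence of this part of chromosome 12 was not tested.

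**Figure D5:**
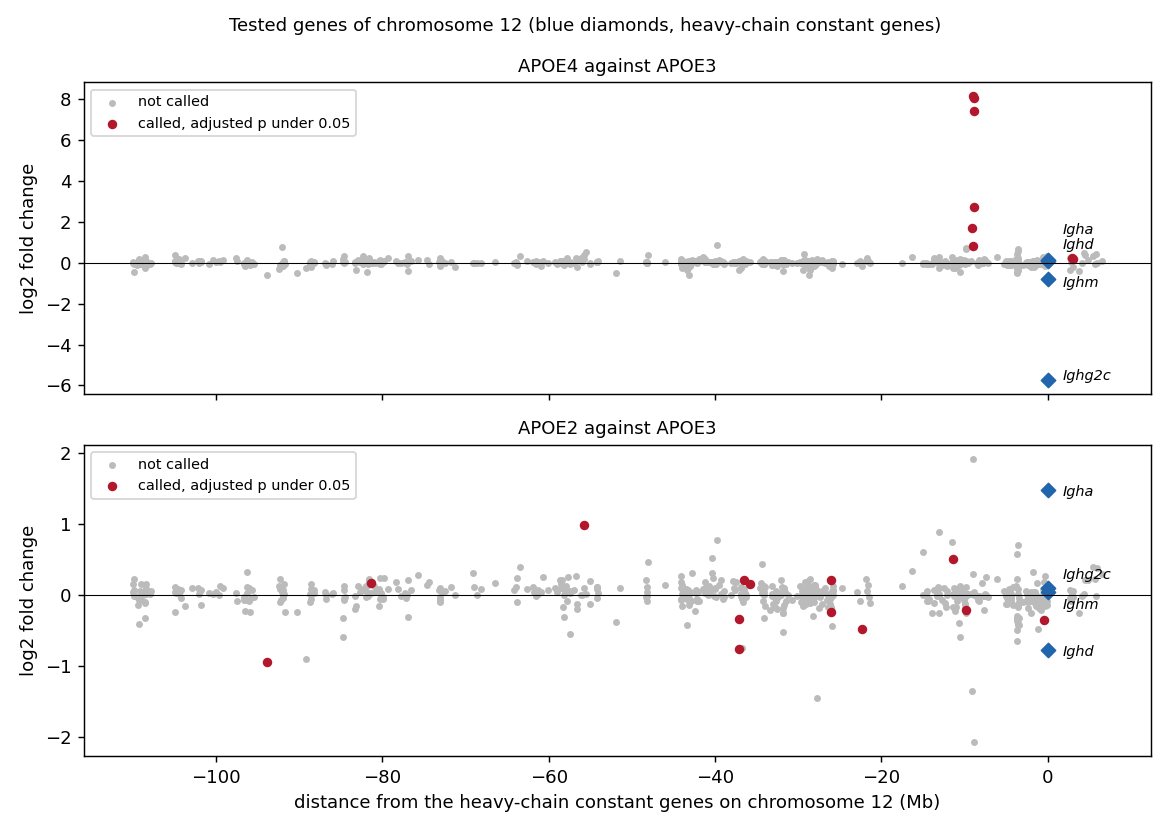
Log2 fold changes of all tested genes of chromosome 12 by distance in Mb from the heavy-chain constant genes, for APOE4 against APOE3 (top) and APOE2 against APOE3 (bottom), on different vertical scales. Ighg2c (-5.72) and Ighm (-0.82) stand below the grey neighbours in the top panel, and the 6 called Serpina3 genes lie about 9 Mb away with positive values.

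Around Igkc on chromosome 6, 37 genes within 2 Mb were tested, and none was called in APOE2 against APOE3 (3 had an unadjusted p under 0.05, edgeR). Polr1a and Kdm3a fell in APOE2 against APOE4, with log2 fold changes of -0.17 and -0.14 (SE 0.04 each, edgeR adjusted p = 0.00869 and 0.0318). The Kdm3a call was lost with no filter, in the 12 compared libraries alone and without any 1 of APOE2 replicates 2, 3, 5 and 6 or APOE4 replicates 1, 2 and 6 (adjusted p up to 0.102). Around Jchain on chromosome 5, 13 genes were tested, and the pseudogene entry Eif5al3-ps rose in APOE2 by 5.62 on the log2 scale against APOE3 (SE 0.26, edgeR adjusted p = 1.21e-13). It averaged 4.43 ± 0.525 CPM in APOE2 and 0.0866 ± 0.0611 in APOE3 (SD, n = 6), and such an entry can share reads with its parent gene. No exon of a member overlapped an exon of another annotated gene, although Igkc lies within the span of the noncoding gene Gm30211.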

How the data were processed

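RNA from hemibrains of 18 mice was sequenced with a stranded mRNA kit as 50-base single reads, per the labels' protocols. The authors deposited raw counts per gene symbol, made with STAR 2.7.0 on GRCm38 and featureCounts per the submitters' processing notes; the annotation and strand setting were not stated there. Of 52459 symbols, 26 were corrupted into dates and are excluded. The deposited normalized values and authors' DESeq2 tables were not used.

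Counts were tested with edgeR 4.0.16 (quasi-likelihood F test, TMM scaling, filterByExpr, genotype and sex as additive terms, all 18 libraries, R 4.3.3), and p-values were adjusted by Benjamini-Hochberg over 18891 genes. Calls are adjusted p under 0.05. CPM use TMM library sizes; log2 CPM for relations used a prior count of 2 and 100000 permutations within genotypes. The tests were checked on simulated data. A replicate number names a mouse and carries no pairing. Mice were grouped by the genotype in the labels. Named genes outside the members are up to 4 per list by smallest p, the variable genes with most reads, and called genes within 2 Mb. Alternatives included other scalings and filters, DESeq2 1.42.0, limma 3.58.1 voom and leaving out each library. The members and lists were chosen with earlier results of these data known.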

Additional observations from a re-analysis of the deposited data

Results flagged for a closer look

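Single mice stood far from the other 5 of their genotype in 5 of 45 groups of levels examined. The rule marks about 1 group in 20 by chance where levels are independent and normally distributed. Several groups here held few reads, and some sums contain genes also examined singly, so that rate need not apply. In APOE2, replicate 2 had 1.30 CPM of Iglc1, the others at most 0.103, 0.525 CPM of summed lambda variable genes, the others at most 0.0563, and 0.564 CPM of summed heavy-chain variable genes, the others 0.197 to 0.329. APOE2 replicate 3 had 0.267 CPM of Ighg1, and the others at most 0.0778. In APOE4, replicate 3 had 0.0586 CPM of summed lambda variable genes, which was 3 reads, and the others at most 0.0204.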

How the results depend on the processing

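The calls of Igkc, Ighm and Ighg2c and of Igha kept their direction and their side of the threshold in every setting that tested them, except that requiring at least 1 CPM in 6 libraries left 1 member called in APOE2 against APOE3, where Jchain was not tested. Nothing is read from the calls of the members in any setting, because they were listed with these contrasts known. Every setting also drew on the same mice. Jchain in APOE2 against APOE4 was called without a filter on low counts and by DESeq2. It was also called without any 1 of APOE2 replicate 2, APOE3 replicate 1 and APOE4 replicates 1, 5 and 6. Over all omissions 3 to 4 members were thus called in that pair. Over omissions of single mice the log2 fold change of APOE2 against APOE3 ran from -0.041 to 0.11 for Ighm and from -0.081 to 0.18 for Ighg2c, both lowest without APOE2 replicate 3. That of males against females ran from -0.31 to 0.12 for Igkc and from -0.19 to 0.063 for Ighg2c, both highest without APOE2 replicate 3, and from -0.012 to 0.16 for Jchain, below 0 without APOE4 replicate 3 or 5.

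Of the B cell and plasma cell genes, 1 (Blnk) was called in APOE2 against APOE3 with no filter, with DESeq2 and in the compared genotypes alone, and 0 in APOE2 against APOE4 with no filter or with at least 1 CPM. Leaving out single mice gave 0 to 1, 1 to 2 and 0 to 1 such calls in the 3 pairs, each highest without APOE4 replicate 3 (Blnk, Derl3 with Fkbp11, and Blnk). Genes near the heavy-chain locus called in APOE2 against APOE4 numbered 4 with at least 1 CPM and 5 with DESeq2, and 2 to 5 without single mice (4 without APOE2 replicate 6, 5 without APOE4 replicate 5); between APOE4 and APOE3, 1 (Crip1) was called with title letters e or f alone. All called genes numbered 272 with DESeq2 between APOE4 and APOE3 against 146, 53 with no filter and 59 with DESeq2 between sexes against 25, and 947 to 1903 without single mice in APOE2 against APOE4 against 1233 (highest without APOE4 replicate 5). Without a filter 1 member, Igkc, was called for the interaction.

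Without single mice, r with Igkc ran from 0.469 to 0.756 for heavy-chain constant genes (adjusted p up to 0.247), from 0.278 to 0.542 for Jchain and from -0.227 to 0.623 for Ttr, which was positive at 0.623 without APOE2 replicate 3 and 0.0619 without APOE2 replicate 4. Without APOE2 replicates 2 and 3 together the log2 ratio of mean Igkc between APOE2 and APOE3 was 1.52. The cause of these changes was not tested.

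No paired analysis was possible because the replicate numbers follow accession order and pair no mice. Depth limits Ighg1, Ighg2b, Ighg3 and single variable genes, at 0 to 38 reads per library. APOE2 titles share no ending letter with the other genotypes, so what the letters mark and APOE2 cannot be told apart.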
